A study of Mus musculus with 4 samples.

Results

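TRBV29 and TRAV9-2 are V segments of the mouse T-cell receptor, the first of the beta chain and the second of the alpha chain. Their chains were taken as every assembled receptor transcript (contig) that was marked productive and named for TRBV29 or TRAV9-2. This gave 26 TRBV29 chains and 9 TRAV9-2 chains in 28 cells, of 416 productive chains in 234 cells, and 2 of the 123 V and J segments found. The segments were chosen by measured cell counts, since TRBV29 chains with TRBJ2-1 and TRAV9-2 were among the largest clonotypes of both libraries. For that reason counts of cells, clones, pairings, J use and sharing between libraries below describe the chains and are not tests of them.

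The study concerned how loss of the retinoic acid signal bears on escape from the immune system in IDH-mutant glioma. C57BL6 mice received 50000 glioma neurosphere cells in the striatum at 6 weeks of age and were given 10 mg/kg all-trans retinoic acid (ATRA) or control into the peritoneum every other day until signs of disease of the nervous system. Tumors were taken with the brain tissue around them, dissociated, and sorted by CD45, which marks immune cells of every kind, before 10x Genomics 5-prime libraries were made. The values below come from 1 control and 1 ATRA receptor library. How many mice went into each is not stated in these sources, there is no replicate, and no test between treatments was possible. Gene expression was not analysed here, so a T cell is known by its receptor contigs alone and was not checked against T-cell markers.

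An alpha-beta T cell joins V, D and J segments into 1 beta chain and V and J segments into its alpha chain during development in the thymus, and its daughters inherit both. The joint forms the CDR3, the loop that mainly touches the peptide held by an MHC molecule, while the germline V segments supply the CDR1 and CDR2 loops that mainly touch the MHC molecule itself. T cells that share both chains to the nucleotide are usually daughters of 1 cell. Cells with the same V segments and nearly the same CDR3 amino acids, but other nucleotides, come from separate joining events.

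The control library held 159 contigs in 74 cells and the ATRA library 496 contigs in 160 cells. Productive chains summed to 382 unique molecular identifiers (UMIs, which count captured RNA molecules) in control and 1841 in ATRA, with a median of 4 and 9 per cell. No cell barcode was found in both libraries (0 shared). In GRCm38.p6, RefSeq places TRBV29 on chromosome 6 at 41271403 to 41271881 and TRAV9-2 on chromosome 14 at 53591080 to 53591504. TRBJ2-1, the joining segment most used with TRBV29, lies on chromosome 6 at 41542754 to 41542803. RefSeq lists TRAV9-2 as a V segment and TRBV29 as a V segment pseudogene.

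The 14 CDR3 amino acid sequences of TRBV29 fell into 12 groups, and 1 of these held 11 of 26 TRBV29 cells, 42.3% (exact 95% binomial interval 23.4 to 63.1). Chains of equal length were joined into a group when they differed by at most 1 amino acid from another member. The largest group had 3 amino acid sequences of 13 residues, all with TRBJ2-1. Their CDR3 nucleotide sequences are given first because the results turn on them. Capitals mark the bases at which the 3 forms are not all alike.
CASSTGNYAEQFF: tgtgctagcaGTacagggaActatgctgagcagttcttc
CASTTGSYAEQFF: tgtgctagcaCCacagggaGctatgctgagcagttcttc
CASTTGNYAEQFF: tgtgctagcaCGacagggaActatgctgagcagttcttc

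Counted from 1 at the first residue (C) or base of the CDR3, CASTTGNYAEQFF differed from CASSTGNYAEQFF by S4T, and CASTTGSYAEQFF by S4T and N7S. At the nucleotide level the first carried G11C and T12G and the second G11C, T12C and A20G. Both forms thus had T at residue 4 through different codons. Each amino acid sequence had 1 nucleotide form, and the closest other TRBV29 chain of 13 residues differed from the group at 7 residues.

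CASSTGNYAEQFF was carried by 6 control cells and 1 ATRA cell, with the same V, J and nucleotides in both libraries. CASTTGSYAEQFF was carried by 3 ATRA cells and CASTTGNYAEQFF by 1 ATRA cell, and neither was found in control. The group as a whole therefore held 6 of 10 TRBV29 cells in control, 60% (26.2 to 87.8), and 5 of 16 in ATRA, 31.2% (11 to 58.7). Among cells with any beta chain these were 8.57% (3.21 to 17.7) and 3.38% (1.11 to 7.71). The intervals overlap, but with 1 library per treatment the difference was not tested. Counted as distinct receptors the group held 33.3% of 6 in control and 25% of 12 in ATRA. With identical CDR3s alone the largest group was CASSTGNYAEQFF by itself, with 6.25% in ATRA. The count of receptors takes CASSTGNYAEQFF with and without an alpha chain as 2 in control. By distinct TRBV29 chains, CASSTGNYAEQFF was the only group member among 5 in control, and all 3 forms were among 10 in ATRA. These and all later intervals cover counting error only, and cells of 1 clone are not independent.

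**Figure D1:**
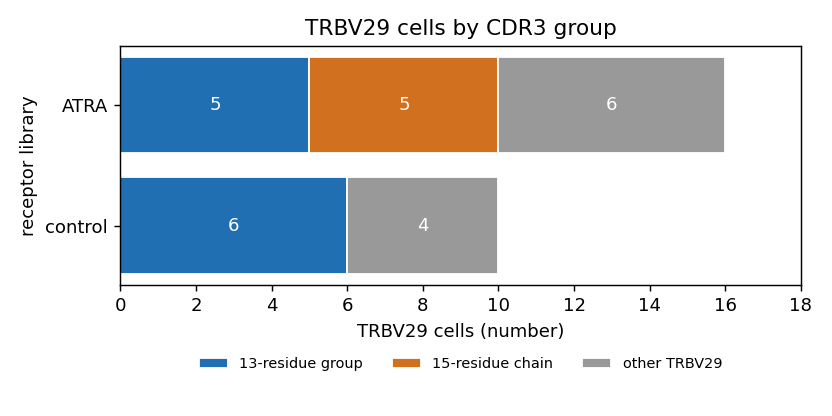
Number of TRBV29 cells (horizontal axis) in the control and ATRA receptor libraries, coloured by CDR3 group. The 13-residue group held 6 of 10 control and 5 of 16 ATRA cells, the 15-residue chain 5 ATRA cells, and chains found in a single cell 4 and 6 cells.

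The alpha chain beside this group was TRAV9-2 in every cell where a productive alpha chain was found. Among group cells with both chains, 3 of 3 in control and 4 of 4 in ATRA carried TRAV9-2 (lower limits of the exact intervals 29.2% and 39.8%). In the other TRBV29 cells with both chains it was found in 0 of 2 in control and 0 of 10 in ATRA, the latter allowing a share of up to 30.0%. In paired cells with another TRBV it was found in 1 of 25 in control, 4% (0.101 to 20.4), and 1 of 107 in ATRA, 0.935% (0.0237 to 5.10). Counted as distinct pairs of nucleotide chains, the group had 1 pair in control and 2 in ATRA, so the 7 cells amount to 3 pairings of TRAV9-2. Over these pairs the lower limits fall to 2.5% in control and 15.8% in ATRA. Distinct pairs with another TRBV held TRAV9-2 in 1 of 22, 4.55% (0.115 to 22.8), and 1 of 82, 1.22% (0.0309 to 6.61). The control intervals over pairs overlap.

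**Figure D2:**
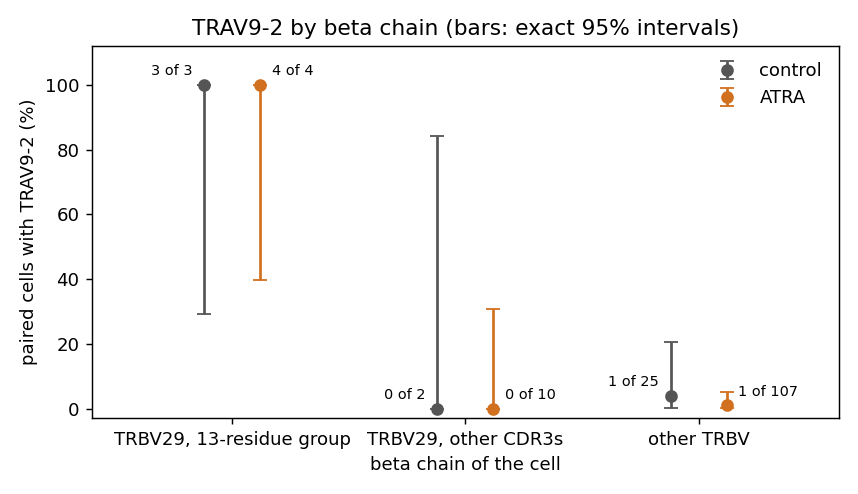
Share of paired cells with a TRAV9-2 alpha chain (vertical axis, percent) by the beta chain of the cell, for the control and ATRA libraries, with exact 95% binomial intervals. Points lie at 100% for the 13-residue group (3 of 3 and 4 of 4 cells), at 0% for other TRBV29 chains (0 of 2 and 0 of 10), and at 4% and 0.935% for other beta chains. The 7 group cells are 3 distinct pairs, and the intervals count cells of 1 clone separately.

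The V segment of these alpha chains was shared, but the J segment and the CDR3 were not. TRAV9-2 occurred in 5 nucleotide forms with 4 TRAJ segments. The sequences are given to show where they differ. Capitals begin after the first 11 bases, which were alike in all 5. Forms of over 14 residues are named by their J segment.
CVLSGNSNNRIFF with TRAJ31: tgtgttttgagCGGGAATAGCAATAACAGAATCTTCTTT
TRAV9-2 with TRAJ39: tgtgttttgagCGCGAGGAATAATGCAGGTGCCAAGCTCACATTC
TRAV9-2 with TRAJ57: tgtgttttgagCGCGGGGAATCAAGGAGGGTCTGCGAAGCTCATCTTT
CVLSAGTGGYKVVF with TRAJ12: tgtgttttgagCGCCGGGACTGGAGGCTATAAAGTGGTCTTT
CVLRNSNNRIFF with TRAJ31: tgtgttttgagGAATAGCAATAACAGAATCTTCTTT

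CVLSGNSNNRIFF with TRAJ31 stood beside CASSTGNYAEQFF in 3 control cells. The TRAJ39 form stood beside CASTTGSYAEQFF in 3 ATRA cells. The TRAJ57 form stood beside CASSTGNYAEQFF in 1 ATRA cell, with 1 UMI. The beta chain found in both libraries was therefore paired with a different TRAV9-2 chain in each. None of the 5 TRAV9-2 forms was found in both (0 shared of 2 control and 3 ATRA forms).

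The remaining pair of TRAV9-2 cells had other beta chains. In control, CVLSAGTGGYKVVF with TRAJ12 stood beside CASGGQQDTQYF, of TRBJ2-5 and the fused name TRBV12-2+TRBV13-2, with 2 UMIs for each chain. In ATRA, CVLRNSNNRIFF with TRAJ31 and 3 UMIs was the second alpha chain of a cell. That cell also held a TRAV7-1 chain with TRAJ13 and 6 UMIs and a TRBV20 beta chain with TRBJ1-4 (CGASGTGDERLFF) and 14 UMIs. Each of the 9 TRAV9-2 cells had a beta chain, and it was TRBV29 in 3 of 4 in control, 75.0% (19.4 to 99.4), and 4 of 5 in ATRA, 80.0% (28.4 to 99.5).

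TRAV9-2 was used by 4 of 34 control cells with an alpha chain, 11.8% (3.30 to 27.5), and 5 of 133 ATRA cells, 3.76% (1.23 to 8.56). With 1 library per treatment these shares were not tested against each other, and over distinct receptors they were 7.14% and 2.94%. TRAJ31 was joined to it in 3 control cells and 1 ATRA cell, and TRAJ39 in 0 and 3. With other V segments, TRAJ31 was found in 0 of 30 control cells, which allows up to 10.0%, and 5 of 128 ATRA cells, 3.91% (1.28 to 8.88). TRAJ39 was found with other V segments in 2 of 30, 6.67% (0.818 to 22.1), and 7 of 128, 5.47% (2.23 to 10.9). In GRCm38.p6 the 4 joining segments lie on chromosome 14, TRAJ57 at 54158507 to 54158569, TRAJ39 at 54179962 to 54180024, TRAJ31 at 54187895 to 54187951 and TRAJ12 at 54206552 to 54206610. The segments joined to TRAV9-2 were thus spread along the TRAJ cluster.

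The duplicated mouse alpha locus holds similar copies of TRAV9, whose reads can be hard to tell apart. RefSeq lists 11 TRAV9 segments, and 4 of these had a productive chain here. The closest namesakes, TRAV9D-2 and TRAV9N-2, had 0 productive chains in the tables. Other TRAV9 segments had 1 chain in control and 10 in ATRA, and cells with one of them and a beta chain used TRBV29 in 0 of 1 and 1 of 10 cells, 10.0% (0.253 to 44.5). With all TRAV9 segments counted, the family was used by 11.3% of ATRA cells with an alpha chain, and TRBV29 stood beside it in 5 of 15, 33.3% (11.8 to 61.6). The 1 ATRA cell with another TRAV9 segment and TRBV29 joined TRAV9-4 to TRAJ31 in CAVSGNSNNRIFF, with 5 UMIs, beside the TRBV29 chain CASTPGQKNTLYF with TRBJ2-4 and 4 UMIs. Its alpha CDR3 shared the last 10 of 13 residues, and the last 32 bases, with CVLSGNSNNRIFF of control. Chains that share TRAJ31 also share its germline bases. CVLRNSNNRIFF shared the last 8 residues and 26 bases, a TRAV8-1 chain beside TRBV12-2+TRBV13-2 in ATRA 9 residues and 27 bases, and the other 3 ATRA chains with TRAJ31 shared 5 to 7 residues. The beta chain beside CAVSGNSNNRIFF was not in the 13-residue group.

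The UMIs behind the pairings were few, above all in control. In control, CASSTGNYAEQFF had 2, 2 and 3 UMIs in the cells with TRAV9-2, whose own UMIs were 1, 2 and 3. The 3 control cells with the same beta chain and no alpha had 5, 5 and 8 beta UMIs. The cells without an alpha chain thus had more beta UMIs than the cells with one. In ATRA, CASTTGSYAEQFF had 22, 4 and 4 UMIs and its TRAV9-2 partner 6, 1 and 5. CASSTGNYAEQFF in the ATRA cell had 13 UMIs and 55598 reads, but its TRAV9-2 chain with TRAJ57 had 1 UMI and 1428 reads. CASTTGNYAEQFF had 8 UMIs and no productive alpha chain.

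**Figure D3:**
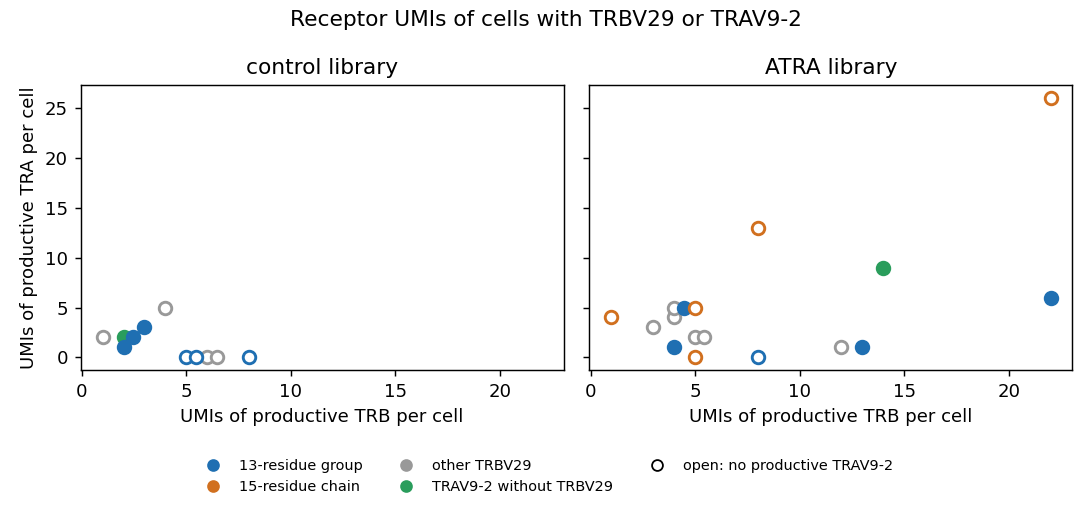
UMIs of productive alpha chains (vertical axis) against UMIs of productive beta chains (horizontal axis) for each cell with TRBV29 or TRAV9-2, in the control and ATRA libraries, with cells of equal values set slightly to the right of each other. Filled points have a TRAV9-2 chain, and the 3 control cells of the 13-residue group without an alpha chain lie at 5, 5 and 8 beta UMIs, to the right of the 3 with one at 2, 2 and 3.

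Over single chains, TRBV29 had a median of 4.5 UMIs in control (1 to 8, n = 10) and 5 in ATRA (1 to 22, n = 16), against 3 and 6 for other beta chains. TRAV9-2 had a median of 2 (1 to 3, n = 4) and 3 (1 to 6, n = 5), the same as other alpha chains in each library. Both chains were found in 5 of 10 TRBV29 cells in control, 50.0% (18.7 to 81.3), and 14 of 16 in ATRA, 87.5% (61.7 to 98.4). Other cells with a beta chain were paired in 41.7% (29.1 to 55.1) and 81.1% (73.3 to 87.4). Thinned to 4 UMIs per cell, the TRBV29 shares were 36.9% of 8 control cells and 69.6% of 16 ATRA cells. The same cells gave 37.5% and 87.5% before thinning, and 2 control and 0 ATRA cells were too shallow. Other cells with a beta chain gave 40.2% of 44 and 62.1% of 127 after thinning. They gave 45.5% and 80.3% before it, and 16 control and 5 ATRA cells were too shallow. Before thinning, the wide intervals of TRBV29 cells overlap those of other cells of the same library. Pairing was not tested between them. The control and ATRA intervals of TRBV29 cells overlap, but the treatments were not tested against each other.

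Outside the 13-residue group, 1 TRBV29 chain was found in more than 1 cell. It had a CDR3 of 15 residues with TRBJ1-2, was carried by 5 ATRA cells, and had more cells than any other TRBV29 beta chain of that library, so its nucleotides are given.
15-residue chain with TRBJ1-2: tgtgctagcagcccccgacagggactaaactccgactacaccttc
In 3 of the 5 cells it was paired with TRAV4-4-DV10 and TRAJ49 (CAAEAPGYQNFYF), with 5, 8 and 22 beta UMIs and 5, 13 and 26 alpha UMIs. Another cell had 5 beta UMIs and no alpha chain. In the last, the beta chain had 1 UMI and 1 read, against 18370 reads or more in the other four, and the alpha chain was TRAV7-4 with TRAJ32. Of all 416 productive chains, 5 had fewer than 100 reads. This chain was found in 0 of 70 control cells with a beta chain, which allows a share of up to 4.29%.

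Of 3 TRBV29 beta chains with 2 or more cells in a library, the deposited clonotype numbers divided 2. The 6 control cells with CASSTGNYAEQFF were 2 clonotypes of 3 cells, with and without the alpha chain. The 5 cells with the 15-residue chain were 3 clonotypes, the largest of 3 cells, while the 3 cells with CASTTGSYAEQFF were 1 clonotype. Counted by the nucleotides of the beta chain, 6 of 10 control TRBV29 cells, 60% (26.2 to 87.8), shared their chain with another cell of the library, against 25.0% of other control cells with a beta chain (14.7 to 37.9). In ATRA it was 8 of 16, 50.0% (24.7 to 75.3), against 47.0% (38.2 to 55.8). The control share rests on 1 beta chain.

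Chains found in a single cell made up the rest, 4 in control and 6 in ATRA, with 6 TRBJ segments among them. Of all 14 distinct TRBV29 chains, 6 had G at position 6 and Q at position 7 of the CDR3, a feature picked after the sequences were seen. They are printed because they used 5 different TRBJ segments and shared 1 stretch of the joint. The joint also takes in a D segment, and D use was not examined here. Capitals mark the longest run of bases common to the 6 past the first 3 codons.
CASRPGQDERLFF with TRBJ1-4: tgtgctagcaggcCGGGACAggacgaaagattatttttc
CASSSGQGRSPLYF with TRBJ1-6: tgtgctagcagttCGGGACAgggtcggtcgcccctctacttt
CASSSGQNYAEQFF with TRBJ2-1: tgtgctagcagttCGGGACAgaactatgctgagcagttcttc
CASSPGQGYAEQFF with TRBJ2-1: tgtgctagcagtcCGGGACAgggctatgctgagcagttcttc
TRBV29 with TRBJ2-2 in ATRA: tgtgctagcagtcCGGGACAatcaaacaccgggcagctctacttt
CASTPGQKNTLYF with TRBJ2-4: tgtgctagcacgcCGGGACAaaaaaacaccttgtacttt

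The first 3 of these were found in control and the last 3 in ATRA, each in 1 cell. G and Q at these positions were found in 3 of 5 distinct TRBV29 chains in control and 3 of 10 in ATRA. Distinct beta chains with another V segment had them in 0 of 54 in control, which allows up to 5.56%, and 5 of 103 in ATRA, 4.85% (1.59 to 11). The run CGGGACA, searched on the coding strand of the CDR3 past its first 3 codons, was taken from these 6 chains, so its presence in them is no finding. It was in none of the other 8 TRBV29 chains. The run spans the codons of G and Q, which these 8 lack, so its absence is no finding either. Of 155 distinct chains of other V segments, 13 had the run, 8.39%. Alpha partners of the 6 were TRAV13-2, TRAV7-3, TRAV12-2, TRAV5-4 and TRAV9-4, each in 1 cell, and 1 cell had none. These chains had no common alpha V segment.

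The other TRBV29 chains found once were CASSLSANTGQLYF with TRBJ2-2 in control, which had no alpha chain, and 3 in ATRA. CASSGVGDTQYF with TRBJ2-5 stood beside TRAV19, a chain of 14 residues with TRBJ2-1 beside TRAV7-4, and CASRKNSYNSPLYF with TRBJ1-6 beside TRAV7N-6. Over both libraries TRBV29 was found with 10 TRAV segments. TRAV9-2 had 7 cells, TRAV4-4-DV10 had 3, TRAV7-4 had 2, with different TRAJ segments, and the other 7 had 1 cell each. TRAV7 family segments together were found beside TRBV29 in 1 control and 3 ATRA cells. These ATRA cells include 1 with TRAV7-4 whose TRBV29 chain had 1 UMI and 1 read.

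TRBV29 was joined to 7 TRBJ segments, led by TRBJ2-1. TRBJ2-1 was used by 7 of 10 TRBV29 cells in control, 70.0% (34.8 to 93.3), and 7 of 16 in ATRA, 43.8% (19.8 to 70.1). Other cells with a beta chain used it in 23.3% (13.4 to 36.0) and 28.8% (21.2 to 37.3). Of the 7 control TRBV29 cells, 6 carried the same chain, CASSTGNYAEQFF. TRBV29 was chosen through clonotypes with TRBJ2-1, so these shares of cells follow in part from the choice. Over distinct chains the TRBV29 shares were 2 of 5 and 5 of 10, against 22.2% of 54 and 22.3% of 103 other chains, and the intervals overlap in both libraries (5.27 to 85.3 against 12 to 35.6 in control, and 18.7 to 81.3 against 14.7 to 31.6 in ATRA). TRBJ1-2 was used by 5 of 16 ATRA cells, all with the 15-residue chain, and 0 of 10 control cells. TRBV29 CDR3s averaged 13.6 residues (SD 0.84, n = 14 distinct chains, 12 to 15), and other beta CDR3s 14 (SD 1.35, n = 155, 11 to 17).

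**Figure D4:**
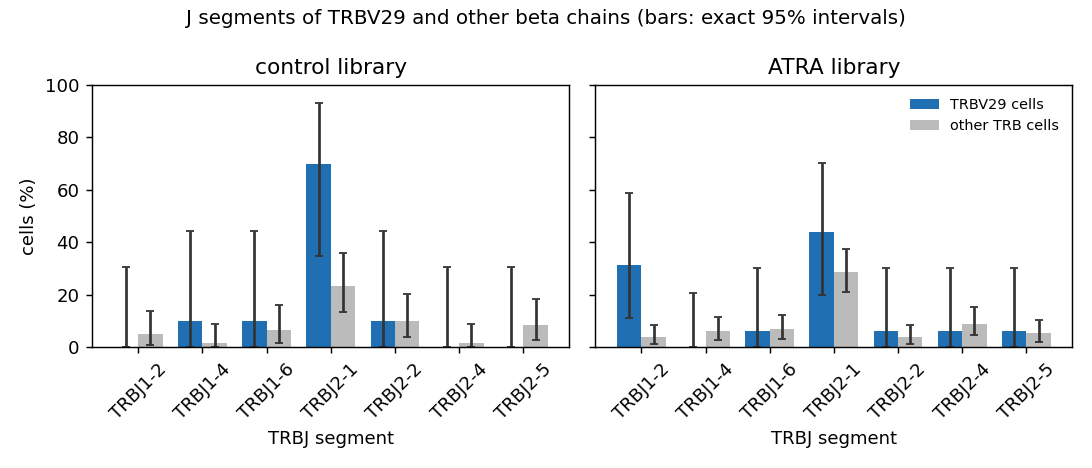
Share of cells (vertical axis, percent) by TRBJ segment for TRBV29 cells and for cells with other beta chains, in the control and ATRA libraries, with exact 95% binomial intervals. TRBJ2-1 stands at 70.0% and 43.8% of TRBV29 cells, and TRBJ1-2 at 31.2% of TRBV29 cells in ATRA, all with 1 beta chain. TRBV29 was chosen through clonotypes with TRBJ2-1.

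Between the libraries, the chain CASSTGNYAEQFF was the 1 TRBV29 chain found in both, of 5 distinct chains in control (20.0%) and 10 in ATRA (10.0%). Over all beta chains, this one included, 3 of 59 in control (5.08%) and 3 of 113 in ATRA (2.65%) were shared to the nucleotide. By amino acids these were 5 of 55 (9.09%) and 5 of 107 (4.67%), while TRBV29 still had 1. TRBV29 was chosen for clonotypes of both libraries, so its shares are no test of sharing. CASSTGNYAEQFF was carried in control by cells with 2 to 8 UMIs and in ATRA by a cell with 13. Libraries that share no barcode thus held the same beta chain with different TRAV9-2 partners, while the ATRA library also held 2 near-identical beta chains of its own. The ATRA partner rests on 1 cell, with 1 UMI for the alpha chain.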

How the data were processed

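T-cell receptors were sequenced in 1 control and 1 ATRA library of CD45-sorted cells. Per the file headers, each contig has a raw count of UMIs and of reads, deposited without normalization beside V, J, CDR3 and clonotype names. Software listed in the submitters' processing notes was Cell Ranger 3.1.0 and bcl2fastq 2.20.0, with build GRCm38. Further steps are not given in the sources used here.

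Productive alpha (TRA) and beta (TRB) chains were kept with at least 1 UMI, and cells with extra chains (over 1 TRB or over 2 TRA) were kept. No doublet caller was run. Distinct chains had the same V, J and CDR3 nucleotides. Shares carry exact Clopper-Pearson 95% intervals, and a count of 0 allows 3 counts of the total (scipy 1.17.1). Thinning used the exact chance that 4 UMIs of a cell held both chains. It and the CDR3 grouping were tested on simulated data. Depth was 382 and 1841 UMIs. Alternatives were 2 or 3 UMIs per chain, cells without extra chains, paired cells, distinct receptors, all TRAV9 segments, and other groupings, chain identities and clonotypes.

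Named were CDR3 groups of 2 or more cells, partner TRAV segments of 2 or more cells, TRBJ segments of 3 or more, every TRAV9-2 cell and chains found in both libraries. Other chains were named after they were seen. Members and lists were chosen with earlier results of these data known. Coordinates and segment types are those of RefSeq for GRCm38.p6, in which 14 of 14 segments looked up were matched.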

Additional observations from a re-analysis of the deposited data

How the results depend on the processing

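Of 90 values computed under 10 alternatives, 83 lay within the counting interval of the reported value (for counts, within 1.5 times), but many intervals are so wide that this says little on stability. Within them, the ATRA share of TRBV29 beside TRAV9-2 went from 80% to 33.3% with all TRAV9 segments, and the control share of TRAV9-2 beside TRBV29 from 60% to 33.3% over distinct receptors. With all TRAV9 segments in place of TRAV9-2, the ATRA share of cells with an alpha chain was 11.3%, against 3.76%. With at least 3 UMIs per chain, 1 control TRAV9-2 cell was left, so the control share of TRBV29 among TRAV9-2 cells and that of TRAJ31 both became 100%, and 1 TRBV29 clonotype of 2 or more cells was left in place of 2. It was also 1 with clonotypes by the beta chain alone, which joins cells with and without an alpha chain. In paired cells alone and with identical CDR3s, the largest group was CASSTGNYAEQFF by itself, with 7.14% and 6.25% of ATRA TRBV29 cells. This is because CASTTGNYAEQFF, which links the other 2 forms, then drops out or stands alone. The forms of the 13-residue group together were still in 4 of 14 paired ATRA TRBV29 cells. The TRBV29 chain in both libraries remained with at least 3 UMIs. Its ATRA alpha partner had 1 UMI and was left out with at least 2 UMIs per chain. With 1 to 16 cells behind each TRBV29 or TRAV9-2 count, moderate differences are not detectable. No paired analysis was possible because each treatment has 1 library.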

Other observations

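Beta chains of other V segments also ended in TG, any residue, then YAEQFF, as the 13-residue TRBV29 group does. This was so in 10 of 60 control cells with another TRBV, 16.7% (8.29 to 28.5), and 24 of 132 in ATRA, 18.2% (12 to 25.8). They were mainly TRBV26 and TRBV14 chains of 15 residues, and none had 13 (0 of 10 and 0 of 24). TRAV9-2 was found beside them in 0 of 4 paired control cells and 0 of 19 paired ATRA cells, the latter allowing up to 15.8%. The ending was picked after the sequences were seen. Each TRBV29 CDR3 that ended in YAEQFF was joined to TRBJ2-1, and D use was not examined.

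RefSeq lists TRBV29 in GRCm38.p6 as a V segment pseudogene, although productive TRBV29 chains were found in 10 control and 16 ATRA cells. TRBV10 is listed likewise and was found in 1 and 3 cells. The other 18 TRBV names with a match are listed as V segments.

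Nonproductive contigs named for either segment numbered 1 in control and 3 in ATRA. The control contig joined TRAV9-2 to TRAJ31 with the CDR3 nucleotides of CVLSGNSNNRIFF, the alpha chain of 3 productive control cells. It had 14 UMIs but 51 reads and stood in a cell whose productive chain was TRBV13-1. In ATRA, a TRBV29 contig with TRBJ1-3 (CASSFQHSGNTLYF) had 2 UMIs and 28912 reads, a TRBV29 contig with TRBJ2-1 had 1 UMI, and a TRAV9-2 contig with no J segment had 1 UMI.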
